A study of Mus musculus with 8 samples.

Results

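Ribosome footprints recovered from control mouse brain with an antibody against SMN were compared with footprints from the polysomes of SMA mouse brain. The comparison used 5 of the 8 ribosome profiling libraries of the series: the 3 SMN immunoprecipitates and the 2 polysome libraries. Every brain was taken at postnatal day 5 from the Taiwanese model of severe SMA on the FVB background. The SMN immunoprecipitates came from the phenotypically normal heterozygotes (Smn+/-; SMN2tg/0), and the polysomes came from the early symptomatic SMA mice (Smn-/-; SMN2tg/0), which lack mouse Smn and live on the human SMN2 transgene that both genotypes carry. The groups thus differ in genotype and in protocol. For the immunoprecipitates, lysate cleared of debris, nuclei and mitochondria was digested with RNase I, ribosomes were pelleted, and those held by the antibody were recovered. For the polysome libraries, polysomes were first separated on a sucrose gradient and their pooled fractions were then digested. What genotype and what protocol contribute to a difference cannot be told apart in these 5 libraries, and p-values compare these libraries as groups of replicates that the labels call biological. An IgG immunoprecipitate (1 library, same genotype and protocol as the SMN immunoprecipitates) is given beside the results, with 2 RiboLace libraries of SMA brain, which capture active ribosomes, named where they matter. Whole brain was used, so fewer cells of a type and fewer footprints per cell cannot be told apart.

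SMN, the protein lost in spinal muscular atrophy, is best known for assembling Sm proteins on spliceosomal snRNAs as part of the SMN complex with the Gemin proteins, and it has also been found on ribosomes and in axons. Ribosome profiling sequences the short stretches of mRNA that ribosomes protect from nuclease, so that the number of footprints on a coding sequence follows how many ribosomes occupy that mRNA. Neonatal brain is a tissue of growing axons, and its footprints are rich in tubulin, microtubule-associated and growth cone mRNAs.

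For each gene 1 coding transcript was kept, the one whose counts, scaled by library, summed to the most. The SMN libraries held 138239, 133295 and 237760 coding footprints, the polysome libraries 1661834 and 2295393, and the IgG library 206690, so that 1 read corresponds to 8.90, 8.91 and 5.02 CPM (reads scaled to a library size of 1e+06 on the scale of the comparison) in the SMN libraries and to 0.60 and 0.44 CPM in the polysome libraries. Coding genes took 68.2% to 70.6% of gene-level reads in the SMN libraries, 64.4% in the IgG library and 89.8% and 90.0% in the polysome libraries. SMN replicate 2 stood apart from the other SMN libraries: the chi-square statistic per gene was 2.97 against replicate 1 and 3.42 against replicate 3, but 1.34 between replicates 1 and 3 and 1.51 between the polysome libraries, where counting error alone gives about 1. The Spearman correlation of log CPM of SMN replicate 2 was 0.698 and 0.712 with SMN replicates 1 and 3. With the polysome libraries it was 0.749 and 0.756. SMN replicates 1 and 3 correlated at 0.861 with each other and at 0.602 to 0.674 with the polysome libraries. Results are therefore also given without SMN replicate 2, which leaves out the SMN library that ranked genes most like the polysome libraries.

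The low-count filter kept 6484 of 21874 genes with a coding transcript. Of these, 1781 (27.5%) differed between SMN immunoprecipitate and SMA polysomes at an adjusted p under 0.05 (edgeR quasi-likelihood test, two-sided, Benjamini-Hochberg adjustment). The SMN immunoprecipitate was higher for 1062 genes (16.4%) and lower for 719 (11.1%), and 711 and 546 of these differed at least 2-fold. The genes that were higher included those for large cytoskeletal linkers, tubulins, motor proteins, collagens and matrix proteins, chromatin regulators and histones. Those that were lower included all 13 proteins encoded in mitochondrial DNA and 54 of 151 proteins with coding regions under 300 bases. Over all 6484 genes, called or not, all 3 SMN libraries lay above both polysome libraries for 1529 and below both for 1725. Among them were 938 of the genes called higher and 715 of those called lower. The filter required about 42.1 CPM in 2 libraries: 657 genes reached it only in the SMN libraries and 1223 only in the polysome libraries. A gene that passed through 1 group alone had to differ. Among the higher genes named here this applies, with others, to Smn1, Plec, Syne1, Flna, Nes, Fn1, Gemin5, Lama1, Scn8a, Erdr1, Tmem38b and Snhg11. Kmt2a and Cyfip1 reached the level in only 1 polysome library. Among the lower genes it applies, with others, to Mt2, Egr1, Npy, C1qc, Snrpg, Mrpl42, Mrps16, mt-Nd4l, Fam179b and the genes with few reads. The direction counts depended on scaling: on library totals, without normalization factors, 636 genes were higher and 1578 lower (28.7% of calls higher, against 59.6%), and the median over all genes moved from -0.02 to -0.31 on the log2 scale. With SMN replicate 2 left out, 1755 genes were higher and 1593 lower among 10996 tested, and no gene had opposite calls in both fits. Of the 184 called genes that the naming rule picks, 180 were still called without SMN replicate 2, 120 without SMN replicate 1, 104 without replicate 3, 54 without polysome replicate 1 and 60 without polysome replicate 2. The last 2 fits leave 1 polysome library, which is assumed to vary like the SMN libraries. All 5 fits kept 49 of the 184 calls, and the other 135 were lost in at least 1 fit, most often in those with 1 polysome library.

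Smn1, the mouse gene for SMN, had 196, 116 and 171 CPM in SMN replicates 1, 2 and 3 and 30.8 and 33.6 CPM in the polysome libraries. These levels rest on 22, 13 and 34 reads and on 51 and 77 reads. All SMN libraries lay above both polysome libraries (log2 fold change 2.32 ± 0.27 (SE), adjusted p = 4.29e-05), and the call held in all 5 fits that leave out a library. The IgG library, of the same genotype as the SMN libraries, had 35.1 CPM from 6 reads, at the polysome level, and the RiboLace libraries had 49.4 and 0 CPM from 2 and 0 reads. The direct comparison of SMN with IgG gave a log2 fold change of 2.197 that did not pass the test (adjusted p = 0.921, 3 libraries against 1). Polysomes came from Smn-/- brain, so the difference at Smn1 cannot be told apart from genotype, and reads from the human transgene that align to mouse Smn1 were not separated.

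Of 9 SMN complex genes in the table, 3 passed the filter on low counts and 2 were higher, where 16.4% of all genes were higher. These 2, Smn1 and Gemin5, passed only through the SMN libraries and had to be higher. Their count is therefore not evidence about the complex. Gemin5, the subunit that recognizes snRNA, had 160.2, 17.8 and 65.3 CPM in the SMN libraries against 19.9 and 18.8 CPM in the polysome libraries (log2 fold change 2.01 ± 0.49 (SE), adjusted p = 0.00897). SMN replicate 2 lay below both polysome libraries, the IgG library had 58.6 CPM, and of the fits that leave out a library only the one without SMN replicate 2 kept the call (adjusted p = 0.146 without SMN replicate 1). For Strap, which binds the complex, the difference of -0.43 on the log2 scale did not pass the test (adjusted p = 0.19). Of the Sm proteins and the methylosome that prepares them, 12 were tested, 0 were higher and 2 (16.7%) lower, beside 11.1% of all genes lower. These were Snrpd2 (107, 143 and 95.4 CPM against 236 and 223 CPM, log2 fold change -1.04 ± 0.26 (SE), adjusted p = 0.00897) and Snrpg (log2 fold change -1.52 ± 0.41, adjusted p = 0.0145), both core proteins of the spliceosomal ring with short coding regions. For both genes the SMN and polysome libraries did not overlap, and both calls were kept only without SMN replicate 2 (adjusted p = 0.0539 and 0.0984 without SMN replicate 1).

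The giant cytoskeletal linkers and spectrins, which tie actin, microtubules and intermediate filaments to membranes and to the nucleus, had the highest list median after the small set of repeat-like genes. Of 12 tested members, 11 were higher and 0 lower, with a median log2 fold change of 2.88 against -0.02 over all genes. Dst (dystonin, a spectraplakin) had 969.8, 526 and 1155 CPM in the SMN libraries and 50.8 and 56.3 CPM in the polysome libraries, with no overlap (log2 fold change 4.06 ± 0.34 (SE), adjusted p = 2e-06). Macf1, the other spectraplakin, had 1459, 579 and 1877 CPM against 119.7 and 113 CPM (log2 fold change 3.50 ± 0.40 (SE), adjusted p = 3.87e-05), and in both genes SMN replicate 2 was the lowest SMN library. Sptbn1, a beta-spectrin of the submembrane lattice, had 5356, 2683 and 6591 CPM against 492 and 475 CPM (log2 fold change 3.34 ± 0.35 (SE), adjusted p = 1.88e-05). Plectin (Plec), which crosslinks intermediate filaments, had a log2 fold change of 4.02 ± 0.42. Of the nuclear envelope linker Syne1, 169, 419 and 236 CPM were measured against 31.4 and 34.5 CPM, and of ankyrin-2 (Ank2), an adaptor between spectrin and membrane proteins, 1379, 2068 and 2043 CPM against 260.0 and 243 CPM, again without overlap. The calls of these 6 genes held in all 5 fits that leave out a library. Utrophin (Utrn) did not pass the test (log2 fold change 0.76, adjusted p = 0.153).

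As a group the linkers and spectrins took 1.20 ± 0.336% of coding reads in the SMN libraries (SD, n = 3), 0.222 ± 0.00710% in the polysome libraries (SD, n = 2) and 1.57% in the IgG library, with 0.295% and 0.292% in the RiboLace libraries from SMA brain. The median over the list was 2.72, 2.10 and 2.86 in SMN replicates 1, 2 and 3 and 2.71 in the IgG library, each as the log2 ratio to the polysome mean. By this median the IgG library lay within the range of the SMN libraries, and its levels of 1365 CPM for Dst, 2167 CPM for Macf1 and 6747 CPM for Sptbn1 lay above all 3 of them. 11 of 12 tested members were higher and 0 lower without SMN replicate 2 (median 2.86).

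**Figure D1:**
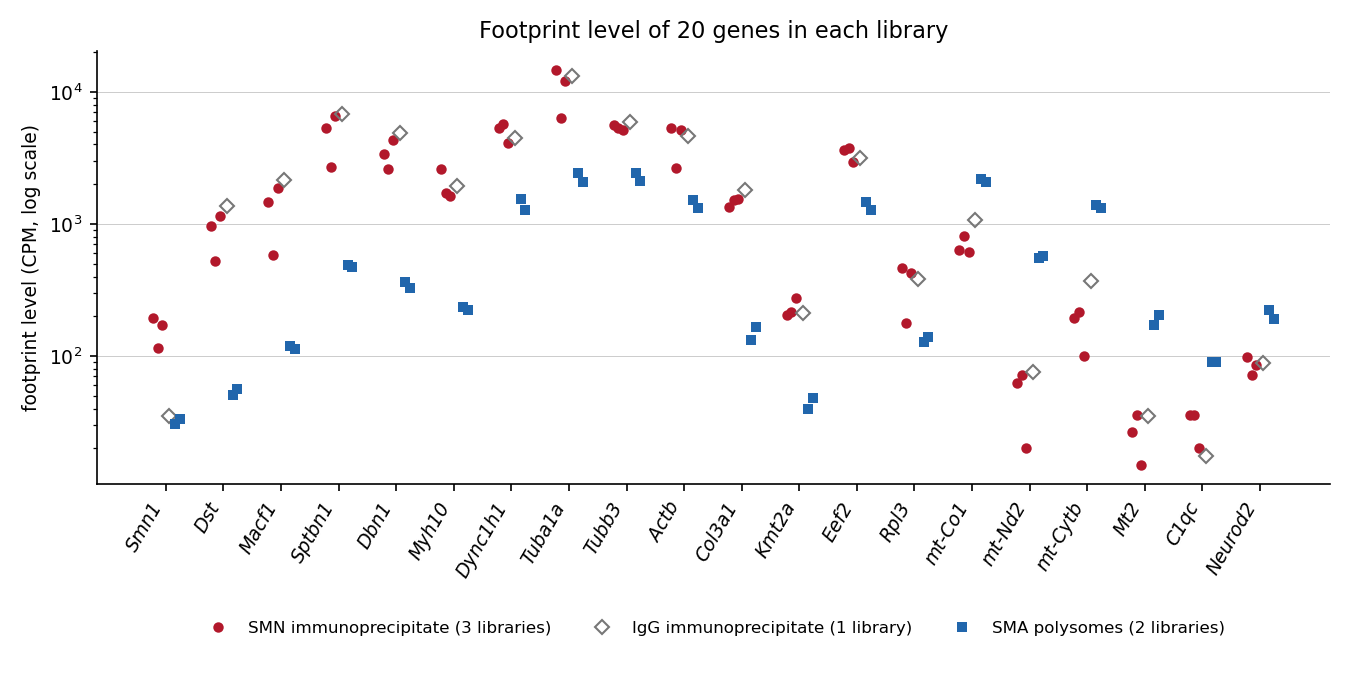
Footprint level of 20 genes (x axis) in CPM on a log axis, 1 point per library: SMN immunoprecipitate replicates 1 to 3 from left to right, the IgG immunoprecipitate and the 2 SMA polysome libraries. For Smn1 the IgG point lies beside the polysome points, while for the cytoskeletal genes it lies with the SMN points, and for mt-Nd2 and mt-Cytb all immunoprecipitate points lie below the polysome points.

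Tubulins, the building blocks of microtubules, were among the most abundant of the genes that were higher. Of 11 tested alpha- and beta-tubulins, 9 were higher and 0 lower (median 1.44), and in all 11 the SMN libraries lay above both polysome libraries, as in 1529 of all 6484 genes. Tuba1a, the main alpha-tubulin of developing neurons, had 14538, 6312 and 12113 CPM against 2426 and 2065 CPM (log2 fold change 2.29 ± 0.33 (SE), adjusted p = 0.000285). Tubb2b, a beta-tubulin of migrating neurons, had 11958, 9958 and 10843 CPM against 2982 and 2535 CPM (log2 fold change 1.99 ± 0.25 (SE), adjusted p = 9.23e-05), and both calls held in all 5 fits. The neuron-specific Tubb3 had 5641, 5358 and 5110.1 CPM against 2424 and 2105 CPM (log2 fold change 1.25 ± 0.24 (SE), adjusted p = 0.00227), and its call was lost without polysome replicate 1 or 2 (adjusted p = 0.123 and 0.214). Tuba4a and Tubb4a did not pass the test (log2 fold changes 0.62 and 0.63, adjusted p = 0.0504 and 0.0556). The tubulins took 5.35 ± 1.10% of coding reads in the SMN libraries (SD, n = 3), 1.73 ± 0.167% in the polysome libraries (SD, n = 2) and 5.96% in the IgG library, and 5.38% and 5.64% in the RiboLace libraries. Tubulin coding sequences are near-identical, so reads can be shared among members and single tubulins are uncertain. Their coding regions are of middle length (median 1344 bases).

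Among growth cone and microtubule regulators, 10 of 26 tested members were higher and 0 lower (median 0.68). Map1a, a microtubule-associated protein of dendrites and axons, had 2269, 3111 and 2164 CPM against 508 and 542 CPM (log2 fold change 2.26 ± 0.27 (SE), adjusted p = 5.79e-05), a call that held in all 5 fits. Its paralog Map1b, an early axonal member of the family, had 10303, 12882 and 9372 CPM against 4155 and 3847 CPM (log2 fold change 1.44 ± 0.25 (SE), adjusted p = 0.00114). The libraries did not overlap, but the call was lost without either polysome library (adjusted p = 0.0807 and 0.122). Stmn2 (stathmin-2, a regulator of microtubule dynamics in axons) had a log2 fold change of 1.10 ± 0.24 and Tmsb10 (thymosin beta-10, an actin-monomer binder) one of 1.35 ± 0.24. Both calls were lost without either polysome library, and that of Stmn2 also without SMN replicate 3 (adjusted p = 0.0584). Dpysl2 (CRMP2), a tubulin-binding protein of axon growth, had 3577, 4787 and 3373 CPM against 2261 and 2032 CPM (log2 fold change 0.86 ± 0.25 (SE), adjusted p = 0.0199), with no call without polysome replicate 1, polysome replicate 2 or SMN replicate 1 or 3. Doublecortin (Dcx) and Map2 did not pass the test (log2 fold changes 0.12 and -0.19). When SMN replicate 2 was dropped, 18 of 26 were higher and 1 lower.

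Of 6 tested intermediate filament genes, 4 were higher (median 1.02). Nestin (Nes), the filament of neural progenitors, had 267, 152 and 171 CPM against 28.4 and 26.6 CPM (log2 fold change 2.80 ± 0.27 (SE), adjusted p = 8.83e-06). Neurofilament heavy chain (Nefh) had 160.2, 472 and 171 CPM against 80.4 and 108 CPM, with SMN replicate 2 well above the other libraries, and light chain (Nefl) had 1121, 1836 and 888 CPM against 589 and 588 CPM. Nestin kept its call in all 5 fits, while Nefh and Nefl lost theirs without either polysome library. The medium chain (Nefm) did not pass the test (log2 fold change 0.25, adjusted p = 0.658). The list median was 0.84, 1.42 and 0.43 in SMN replicates 1, 2 and 3 and 0.16 in the IgG library, whose Nefh level was 82.0 CPM.

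Actin genes and actin regulators were higher for 9 of 16 tested members and lower for 1 (median 1.02). Beta-actin (Actb) had 5374, 2639 and 5185 CPM against 1532 and 1332 CPM (log2 fold change 1.62 ± 0.31 (SE), adjusted p = 0.00213), and its call was lost without polysome replicate 2 (adjusted p = 0.0831). Filamin A (Flna), a large actin crosslinker, had 169, 71.3 and 90.4 CPM against 11.5 and 15.7 CPM (log2 fold change 2.93 ± 0.40 (SE), adjusted p = 0.000187), a call kept in all 5 fits. Fascin (Fscn1), which bundles actin in filopodia, had a log2 fold change of 1.52 ± 0.25, a call lost without either polysome library. The member that was lower was cofilin-2 (Cfl2), an actin-severing protein, at -1.19 ± 0.28 (adjusted p = 0.00707). It was picked out after its value was seen. Drebrin (Dbn1), an actin-binding protein of growth cones and spines that is on none of the lists, was among the 12 largest differences at 3363, 2621 and 4347 CPM against 366 and 325 CPM (log2 fold change 3.32 ± 0.30 (SE), adjusted p = 3.44e-06), with 4902 CPM in the IgG library. Its coding region, at 1983 bases, is of middle length.

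Of 24 tested motor protein genes, 14 were higher and 0 lower (median 0.84). Nonmuscle myosin IIB (Myh10), the contractile myosin of growth cones, had 2598, 1703 and 1631 CPM against 233 and 225 CPM (log2 fold change 3.10 ± 0.29 (SE), adjusted p = 6.99e-06), and its paralog Myh9 (myosin IIA) had 916, 1212 and 482 CPM against 141 and 125 CPM (log2 fold change 2.68 ± 0.34 (SE), adjusted p = 8.74e-05). The dynein heavy chain Dync1h1, motor of retrograde axonal transport, had 5285, 5732 and 4131 CPM against 1543 and 1281 CPM (log2 fold change 1.84 ± 0.26 (SE), adjusted p = 0.00025). The synaptic vesicle kinesin Kif1a had a log2 fold change of 1.77 ± 0.27, and the 4 calls held in all 5 fits. The members that did not pass the test included light and intermediate chains and adaptors of dynein, among them Dync1i1 (0.55), Dynll1 (0.07), Dynll2 (0.22) and Dctn1 (0.29). The list median was 0.98, 0.26 and 1.01 in SMN replicates 1, 2 and 3 and 1.05 in the IgG library. In the fit without SMN replicate 2, 16 were higher and 2 lower.

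Of 44 collagens in the table, fibrous proteins of extracellular matrix and basement membrane, 16 were tested. Of these, 12 were higher and 0 lower (median 1.43). Col4a5, Col2a1, Col18a1 and Col12a1, among those called, passed the filter only through the SMN libraries, so they had to be higher. Col5a2 and Col6a2, also called, reached the filter level in only 1 polysome library. Col3a1, a fibrillar collagen of vessel walls and meninges, had 1344, 1507 and 1546 CPM against 132 and 165 CPM (log2 fold change 3.30 ± 0.27 (SE), adjusted p = 2e-06). The basement membrane chain Col4a1 had 569, 678 and 673 CPM against 149 and 171 CPM (log2 fold change 2.00 ± 0.24 (SE), adjusted p = 6.84e-05). Neither gene overlapped between groups, and both calls held in all 5 fits. Col1a1 had 569, 1783 and 1325 CPM against 300.5 and 475 CPM (log2 fold change 1.66 ± 0.37 (SE), adjusted p = 0.00564), and its call was lost without SMN replicate 2 (log2 fold change 1.35, adjusted p = 0.265) and without polysome replicate 1 (adjusted p = 0.117). Without SMN replicate 2, 15 of 27 tested collagens were higher and 1 lower.

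Matrix glycoproteins and proteoglycans were higher for 18 of 27 tested members and lower for 0 (median 1.09). Fibronectin (Fn1) had 303, 53.5 and 356 CPM against 24.2 and 27.9 CPM (log2 fold change 3.30 ± 0.39 (SE), adjusted p = 5.29e-05), with SMN replicate 2 the nearest to the polysome libraries. Tenascin-C (Tnc), made by neural progenitors, had 649.5, 232 and 487 CPM against 74.4 and 61.9 CPM, laminin alpha-1 (Lama1) 125, 241 and 176 CPM against 38.7 and 38.4 CPM, and agrin (Agrn), the organizer of the neuromuscular junction, 792, 544 and 723 CPM against 187 and 209.8 CPM. The 4 calls held in all 5 fits, with log2 fold changes of 2.76 ± 0.29, 2.21 ± 0.26 and 1.79 ± 0.25 for Tnc, Lama1 and Agrn. Of adhesion and axon guidance genes, 22 of 41 were higher and 0 lower (median 0.77). Slit1, a repellent guidance cue, had 294, 249.6 and 341 CPM against 83.4 and 96.8 CPM (log2 fold change 1.74 ± 0.21 (SE), adjusted p = 6.19e-05), and its call was lost without polysome replicate 1 (adjusted p = 0.0673). Markers of meninges and fibroblasts moved with these lists: 5 of 9 tested were higher and 1 lower, and they summed to 0.311% to 0.431% of coding reads in the SMN libraries, 0.157% and 0.179% in the polysome libraries and 0.373% in the IgG library, with none of the 12 markers at 0 in either group. The genes called higher on that list are Col3a1, Col1a1, Col1a2, Igf2 and Ptgds, so that it shares its collagens with the collagen list. Its part in the matrix result was not tested. With SMN replicate 2 left out, 19 of 29 matrix genes and 26 of 42 adhesion genes were higher, with 1 lower in each list.

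Chromatin regulators with long coding regions were higher for 29 of 40 tested members and lower for 0 (median 1.17). Some of the 29, among them Setd1b, Brwd1, Kmt2b, Chd9 and Baz2b, passed the filter only through the SMN libraries. These had to be higher. The histone H3K4 methyltransferase Kmt2a had 205, 214 and 276 CPM against 39.9 and 48.0 CPM (log2 fold change 2.43 ± 0.23 (SE), adjusted p = 7.41e-06). Trrap, a scaffold of histone acetyltransferase complexes, had 498, 160.5 and 376 CPM against 63.5 and 66.7 CPM. The libraries did not overlap for either gene, and both calls held in all 5 fits. The list was put together by length as well as by function, and its median coding length was 7374 bases. When SMN replicate 2 was dropped, 31 of 42 were higher and 0 lower.

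Core histones were higher for 42 of 59 tested members and lower for 0 (median 0.96), with short coding regions (median 390 bases). Hist1h4c, an H4 gene, had 561, 535 and 452 CPM against 196 and 185 CPM (log2 fold change 1.43 ± 0.24 (SE), adjusted p = 0.000882). Its call was lost without either polysome library. The list median differed among libraries, at 1.47, 0.97 and 0.34 in SMN replicates 1, 2 and 3 and 0.38 in the IgG library. Core histones took 1.47 ± 0.445% of coding reads in the SMN libraries (SD, n = 3), 0.874 ± 0.0292% in the polysome libraries (SD, n = 2) and 0.987% in the IgG library. The RiboLace libraries of SMA brain had 1.82% and 1.74%, above the SMN mean. In the fit without SMN replicate 2, 37 of 61 were higher and 2 lower. Of 7 linker histones, 1 was higher, Hist1h1d, at 409, 1079 and 316 CPM against 299.9 and 260.4 CPM (adjusted p = 0.0474). That call was lost without SMN replicate 2 (log2 fold change 0.30, adjusted p = 0.193), and also without SMN replicate 1 or either polysome library. The IgG library had 223 CPM. Histone genes of 1 type are near-identical, so members share reads.

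Among components of the ribosome, 17 of 46 tested large-subunit protein genes were higher and 1 lower (median 0.48), and 10 of 32 small-subunit protein genes were higher and 1 lower (median 0.42). Rpl3 had 463, 178 and 427 CPM against 128 and 139.6 CPM (log2 fold change 1.44 ± 0.28 (SE), adjusted p = 0.00262), and Rpsa, a laminin-receptor homolog in the small subunit, had 436, 357 and 397 CPM against 166 and 159.6 CPM (log2 fold change 1.28 ± 0.23 (SE), adjusted p = 0.00143). In both, all SMN libraries lay above the polysome libraries, and both calls were lost without either polysome library. The large-subunit list median was 0.62, -0.17 and 0.65 in SMN replicates 1, 2 and 3, so that replicate 2 lay below the polysome mean, and 0.55 in the IgG library. Without SMN replicate 2, 24 of 49 large-subunit and 16 of 34 small-subunit genes were higher, with 2 and 2 lower. Ribosomal protein genes have many processed copies, which can split their reads.

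Of 9 elongation factors, 2 (22.2%) were higher and 0 lower, beside 16.4% of all genes higher. Eef2, which translocates the ribosome, had 3639, 3753 and 2962 CPM against 1461 and 1277 CPM (log2 fold change 1.33 ± 0.25 (SE), adjusted p = 0.00185), and Eef1a1, which delivers aminoacyl-tRNA, had 2820.5, 1195 and 2545 CPM against 878 and 729 CPM (log2 fold change 1.45 ± 0.32 (SE), adjusted p = 0.00554). Neither overlapped between groups, and both calls were lost without either polysome library, that of Eef1a1 also without SMN replicate 3 (adjusted p = 0.057). Of 43 initiation factors, 6 (14%) were higher and 6 (14%) lower (median -0.16), shares near the 16.4% and 11.1% of all genes, and without SMN replicate 2 11 were higher and 12 lower of 51. The scaffold Eif4g1 had 400.4, 98.1 and 321 CPM against 63.5 and 85.0 CPM (log2 fold change 1.90 ± 0.31 (SE), adjusted p = 0.000798), while Eif5, the GTPase activator of start codon selection, had 116, 98.1 and 90.4 CPM against 235 and 231 CPM (log2 fold change -1.23 ± 0.25 (SE), adjusted p = 0.00356). Eif4g1 lost its call without polysome replicate 1 (adjusted p = 0.0532), and Eif5 without either polysome library or SMN replicate 3. Of 20 aminoacyl-tRNA synthetases, 6 were higher and 0 lower (median 0.23, and -0.07 on library totals), with the smallest p for Eprs at a log2 fold change of 0.97 ± 0.22. Lars2, the mitochondrial leucyl-tRNA synthetase, was among the 12 largest differences and is described with the repeat-like genes.

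All 13 tested genes of the mitochondrial genome were lower in the SMN immunoprecipitate, with no overlap between groups for any of them (median -1.72), where 11.1% of all genes were lower and 1725 of 6484 lay below without overlap. mt-Co1, the catalytic subunit of complex IV, had 632, 811 and 612 CPM against 2198 and 2074 CPM (log2 fold change -1.65 ± 0.24 (SE), adjusted p = 0.000362). Cytochrome b (mt-Cytb) had 196, 214 and 100.4 CPM against 1384 and 1314 CPM (log2 fold change -3.05 ± 0.30 (SE), adjusted p = 9.8e-06). The complex I subunit mt-Nd2 had 62.3, 71.3 and 20.1 CPM against 552 and 572 CPM (log2 fold change -3.61 ± 0.36 (SE), adjusted p = 1.06e-05). The calls of these 3 genes, and those of mt-Nd4, mt-Nd4l, mt-Nd5 and mt-Co3, held in all 5 fits. As a group they took 0.167 ± 0.0137% of coding reads in the SMN libraries (SD, n = 3), 0.870 ± 0.00552% in the polysome libraries (SD, n = 2) and 0.3% in the IgG library, with 0.855% and 1.15% in the RiboLace libraries. The IgG library thus lay between the SMN and the polysome libraries, with 1078 CPM for mt-Co1 and 369 CPM for mt-Cytb. Lysates for the immunoprecipitates were spun to remove mitochondria, per the labels' protocols. No such step is described there for the polysome gradients, and its part in the result was not tested.

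**Figure D2:**
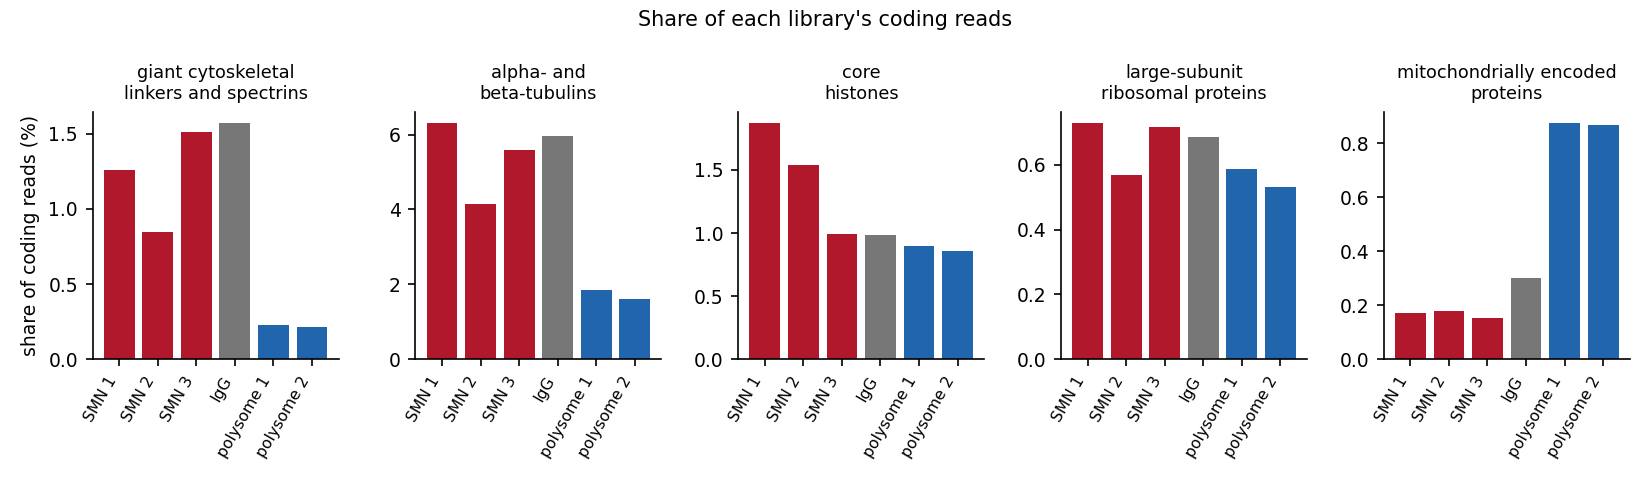
Share of each library's coding reads (y axis, %) taken by 5 gene lists, with 1 bar per library for the SMN immunoprecipitate replicates 1 to 3, the IgG immunoprecipitate and the 2 SMA polysome libraries; y axes differ between panels. Linkers, spectrins and tubulins take a larger share in every immunoprecipitate than in either polysome library, mitochondrially encoded genes a smaller one, and the IgG bar stands beside the SMN bars for linkers and tubulins and between SMN and polysome bars for the mitochondrial genes.

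Of 75 tested nuclear subunits of oxidative phosphorylation, 9 (12%) were higher and 7 (9.33%) lower (median -0.05), both shares below the 16.4% and 11.1% of all genes, and without SMN replicate 2 12 were higher and 19 lower of 75. The complex I subunit Ndufv1 had 240.2, 187 and 281 CPM against 92.5 and 92.5 CPM (log2 fold change 1.40 ± 0.22 (SE), adjusted p = 0.000508) and the complex III core protein Uqcrc1 881, 642 and 718 CPM against 291 and 296 CPM (log2 fold change 1.35 ± 0.24 (SE), adjusted p = 0.00165). Ndufc2, a small accessory subunit of complex I, was lower at 89.0, 125 and 80.3 CPM against 242 and 214 CPM (log2 fold change -1.26 ± 0.27 (SE), adjusted p = 0.00399). The 3 calls were lost without either polysome library, and that of Ndufc2 also without SMN replicate 3. Of 44 mitochondrial ribosomal proteins, 0 were higher and 5 (11.4%) lower (median -0.36). The share lower was near the 11.1% of all genes, and the share higher was below the 16.4%. Among the 5 were Mrpl42 and Mrps16 (log2 fold changes -2.06 and -1.46). Their calls were lost without SMN replicate 1 (adjusted p = 0.107 and 0.112), without SMN replicate 3 and without a polysome library. With SMN replicate 2 left out, 3 mitochondrial ribosomal proteins were higher and 12 lower of 77. Of 16 glycolytic enzymes, 8 were higher and 0 lower (median 0.76). Gapdh had 543, 169 and 457 CPM against 135 and 137 CPM (log2 fold change 1.54 ± 0.31 (SE), adjusted p = 0.00321), with SMN replicate 2 the lowest SMN library and no call without either polysome library, and without SMN replicate 2 12 of 16 were higher.

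For synaptic vesicle and release genes, 8 of 30 tested members were higher and 1 lower (median 0.19, and -0.10 on library totals). The members with the smallest p were the presynaptic scaffold Pclo (piccolo) at 472, 392 and 582 CPM against 136 and 140.0 CPM (log2 fold change 1.82 ± 0.25 (SE), adjusted p = 0.000165) and the vesicle priming protein Unc13a at 703, 348 and 557 CPM against 173 and 172 CPM (log2 fold change 1.64 ± 0.28 (SE), adjusted p = 0.000928). Pclo kept its call in all 5 fits and Unc13a lost it without either polysome library. Snap25, the membrane SNARE, did not pass the test (log2 fold change -0.02, adjusted p = 0.963). Receptors and voltage-gated channels were higher for 13 of 36 and lower for 0 (median 0.45), with the smallest p for the calcium channel Cacna1b (1.68 ± 0.23) and the sodium channel Scn8a (1.82 ± 0.30). The call of Cacna1b was lost without polysome replicate 1 and that of Scn8a without polysome replicate 2. When SMN replicate 2 was dropped, 19 of 39 receptors and channels were higher and 2 lower. Of 11 ion pumps, 5 (45.5%) were higher and 0 lower, beside 16.4% of all genes higher.

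Of 24 tested SMA modifiers and motor neuron disease genes, 4 (16.7%) were higher and 0 lower (median 0.14, and -0.15 on library totals), where 16.4% of all genes were higher. The 4 were Agrn, Dync1h1, Coro1c (0.98 ± 0.22) and Kif5a (0.87 ± 0.25). The calls of Coro1c and Kif5a were kept only without SMN replicate 2 among the fits that leave out a library. Plastin 3 (Pls3), an actin bundler known as an SMA modifier, gave 0.11 on the log2 scale (adjusted p = 0.858). Chp1 and Ncald, regulators of endocytosis known as SMA modifiers, had -1.22 and 0.24 (adjusted p = 0.0805 and 0.567). Among regulators of local translation around FMRP, 3 of 13 (23.1%) were higher and 0 lower, beside 16.4% of all genes higher. Cyfip1, an FMRP partner, had 151, 116 and 131 CPM against 41.7 and 45.4 CPM (log2 fold change 1.59 ± 0.26 (SE), adjusted p = 0.00077), with a further member, Cyfip2, at 0.95 ± 0.28 and the stress granule protein G3bp2 at 0.84 ± 0.22. The 3 calls were lost without either polysome library, and those of Cyfip2 and G3bp2 also without SMN replicate 1 or 3.

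The 12 genes that lay furthest below polysomes, among abundant genes without overlap, held the mitochondrial mt-Nd2, mt-Cytb and mt-Nd5 and 9 genes with few reads, which passed the filter only through the polysome libraries. Smim15, a small membrane protein, had 0, 0 and 5.02 CPM against 50.8 and 57.1 CPM, a single read in the 3 SMN libraries (log2 fold change -4.44 ± 0.80 (SE), adjusted p = 0.00143). Mt2 (metallothionein 2, a metal-binding protein) had 26.7, 35.7 and 15.1 CPM against 173 and 206 CPM (log2 fold change -3.00 ± 0.39 (SE), adjusted p = 0.000114). Plvap, a diaphragm protein of fenestrated endothelium, had 8.90, 8.91 and 5.02 CPM against 49.6 and 67.6 CPM (log2 fold change -3.05 ± 0.63 (SE), adjusted p = 0.00356), and the peptide ligand Apln (apelin) 8.90, 8.91 and 5.02 CPM against 49.0 and 42.3 CPM (log2 fold change -2.65 ± 0.62 (SE), adjusted p = 0.00713). Deb1, Tmem74, Ldlrad4, Gpx8 and Nufip1 had log2 fold changes of -3.61, -3.30, -3.01, -2.74 and -2.61. Mt2 and the 3 mitochondrial genes kept their calls in all 5 fits, while the others were not called, or had too few reads to be tested, with 1 polysome library. 0 reads in an SMN library allow up to 3 reads, which is 12.6 to 22.5 CPM of its coding reads by counting error alone.

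Beside mitochondrial genes, the abundant genes that were lower included Neo1 (the netrin receptor neogenin) at 338, 597 and 392 CPM against 777 and 772 CPM (log2 fold change -0.82 ± 0.27 (SE), adjusted p = 0.0324), Sf3b2, a U2 snRNP protein of splicing, at 151, 392 and 181 CPM against 534 and 511 CPM (log2 fold change -1.15 ± 0.31 (SE), adjusted p = 0.0153), and Serinc3 at 169, 232 and 186 CPM against 527 and 506 CPM (log2 fold change -1.41 ± 0.26 (SE), adjusted p = 0.00156). Hnrnpul2 and Soga3 had log2 fold changes of -0.85 and -0.87. Neo1, Sf3b2, Hnrnpul2 and Soga3 lost their calls in each fit without SMN replicate 1, SMN replicate 3 or a polysome library, and Serinc3 without polysome replicate 1 (adjusted p = 0.061).

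Immediate early genes, the first transcription factors induced by activity or stress, were lower for 4 of 7 tested members and higher for 0 (median -1.25). Of all genes, 11.1% were lower. Junb, Nr4a3 and Egr1, among those called, passed the filter only through the polysome libraries, so they had to be lower. Jun had 89.0, 62.4 and 65.3 CPM against 181 and 184 CPM (log2 fold change -1.36 ± 0.27 (SE), adjusted p = 0.00285), with 52.7 CPM in the IgG library and no call without SMN replicate 3 or either polysome library. Egr1 had 17.8, 8.91 and 40.2 CPM against 66.5 and 58.5 CPM (log2 fold change -1.25 ± 0.44 (SE), adjusted p = 0.044) and lost its call in all 5 fits. Of 3 metallothioneins, 2 were lower: Mt2, above, and the neuronal Mt3 (97.9, 276 and 100.4 CPM against 307 and 294 CPM, log2 fold change -0.998 ± 0.33 (SE), adjusted p = 0.0362), which kept its call only without SMN replicate 2. The list median in SMN replicates 1, 2 and 3 was -1.58, -0.12 and -1.55. Of 15 secretogranins and neuropeptides, 4 (26.7%) were lower and 1 (6.67%) higher (Vgf 0.72), beside 11.1% and 16.4% of all genes. Neuropeptide Y (Npy) had 17.8, 17.8 and 70.3 CPM against 133 and 133 CPM (log2 fold change -1.64 ± 0.37 (SE), adjusted p = 0.00563) and cholecystokinin (Cck) 71.2, 143 and 55.2 CPM against 209 and 171 CPM (log2 fold change -1.18 ± 0.31 (SE), adjusted p = 0.0128). Npy lost its call without SMN replicate 1 and Cck without any library but SMN replicate 2. SR splicing factors were lower for 3 (21.4%) of 14 and higher for 0 (median -0.33). Of these, Tra2a and Srrm4 passed the filter only through the polysome libraries. Of 37 hnRNPs and neuronal RNA-binding proteins, 2 (5.41%) were higher (Hnrnpm 1.09, Matr3 1.18) and 2 (5.41%) lower. Both shares were below the 16.4% and 11.1% of all genes. The 2 that were lower were Hnrnpul2 and Elavl1 (HuR, 89.0, 134 and 90.4 CPM against 260.0 and 239.9 CPM, log2 fold change -1.29 ± 0.27 (SE), adjusted p = 0.00356). Matr3 overlapped between groups and kept its call only without SMN replicate 2, and Elavl1 lost its call without SMN replicate 3 or either polysome library.

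Protein homeostasis genes are given list by list, where 16.4% of all genes were higher and 11.1% lower. Of 12 ubiquitin genes, 4 were higher and 0 lower (median 0.55): the ligase Huwe1 had 1112, 571 and 909 CPM against 229 and 232 CPM (log2 fold change 1.91 ± 0.28 (SE), adjusted p = 0.000385), and the deubiquitinase Uchl1, abundant in neurons, had 1335, 1560.1 and 1496 CPM against 700.1 and 624 CPM (log2 fold change 1.15 ± 0.24 (SE), adjusted p = 0.00402). Of 33 proteasome subunits 2 (6.06%) were higher and 1 (3.03%) lower, both below the shares of all genes. Of 7 CCT chaperonin subunits 2 were higher (Cct3 at 1.79 ± 0.34) and 0 lower. Of 23 ER chaperones and translocon genes 2 (8.7%) were higher and 4 (17.4%) lower. Of 15 cytosolic heat shock chaperones 4 (26.7%) were higher and 2 (13.3%) lower (median 0.07, and -0.22 on library totals). Hspa8, the constitutive Hsc70, had 2723, 1141 and 2369 CPM against 787 and 705 CPM (log2 fold change 1.48 ± 0.32 (SE), adjusted p = 0.00462), while its cochaperone Stip1 had 196, 223 and 161 CPM against 389 and 371 CPM (log2 fold change -1.003 ± 0.26 (SE), adjusted p = 0.0108). Of 18 imprinted genes 6 were higher and 2 lower. The growth factor Igf2 had 525, 285 and 537 CPM against 140.3 and 143 CPM (log2 fold change 1.69 ± 0.27 (SE), adjusted p = 0.000659). The calls of Huwe1, Cct3 and Igf2 held in all 5 fits, and those of Uchl1, Hspa8 and Stip1 were lost without either polysome library, that of Stip1 also without SMN replicate 1 or 3.

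Brain markers were present in both groups: all 12 neuron markers were tested and none was at 0. They summed to 1.05% to 1.22% of coding reads in the SMN libraries, 0.787% and 0.822% in polysomes and 1.09% in the IgG library, and 4 were higher and 0 lower, namely Tubb3, Stmn2, Nefl and the adhesion molecule Ncam1. Elavl3, Rbfox3, Snap25 and Syt1 did not pass the test, at -0.51, -0.50, -0.02 and 0.09. Microglia markers were lower for 3 of 6 and higher for 0, namely the complement genes C1qa, C1qb and C1qc. These 3 passed the filter only through the polysome libraries, so they had to be lower. C1qc had 35.6, 35.7 and 20.1 CPM against 90.7 and 90.7 CPM (log2 fold change -1.67 ± 0.37 (SE), adjusted p = 0.00529), and the 12 microglia markers summed to 0.0282% to 0.0585% of coding reads in the SMN libraries and 0.0704% and 0.0707% in polysomes and 0.0242% in the IgG library, with Aif1 at 0 in the SMN libraries. Cortical projection neuron markers were higher for 2 (13.3%) and lower for 3 (20%) of 15, beside 16.4% and 11.1% of all genes. Their list median was -0.11, -1.82 and -0.09 in SMN replicates 1, 2 and 3. Neurod2 had 97.9, 71.3 and 85.3 CPM against 222 and 189 CPM (log2 fold change -1.27 ± 0.27 (SE), adjusted p = 0.0039), and Mef2c, called higher, had 356, 17.8 and 296 CPM against 119 and 105 CPM, with SMN replicate 2 below both polysome libraries. C1qc and Neurod2 lost their calls without SMN replicate 3 (adjusted p = 0.108 and 0.0577) and without either polysome library, and Mef2c kept its call only without SMN replicate 2.

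Hindbrain and cerebellum markers gave -0.05, 0.57 and -0.91 in SMN replicates 1, 2 and 3, with 0 of 5 higher and 2 (40%) lower. Interneuron markers were higher for 1 (10%) and lower for 2 (20%) of 10 (Gad1 0.77, Calb1 -1.91, Npy -1.64). Of all genes, 16.4% were higher and 11.1% lower. The SMN libraries thus differed among themselves in regional neuron markers, replicate 2 being lowest for cortical and highest for hindbrain genes. The part of regional makeup in the results was not tested. In the next 4 lists 0 were lower, and the shares higher stand beside 16.4% of all genes. Of astrocyte and radial glia markers 2 of 17 (11.8%) were higher (Apoe 1.01, Aldh1l1 0.73). Of progenitor and cell cycle markers it was 3 of 14 (21.4%), with Mki67 at 196, 329.9 and 136 CPM against 47.2 and 62.8 CPM. Of oligodendrocyte lineage markers it was 1 of 11 (9.09%). Of cholinergic and motor neuron markers it was 1 of 3 (33.3%), Ache at 1.24, while Slit3 and Ngfr had -0.23 and -0.11 without a call. None was called among 7 endothelium and pericyte, 4 blood, 2 choroid plexus, 1 skeletal muscle and 1 liver markers tested. The motor neuron genes Isl2, Lhx3 and Mnx1 had 0 reads in the SMN libraries, as did 5 of 12 blood, 3 of 12 skeletal muscle and 6 of 12 liver markers. In the deeper polysome libraries Mnx1 and 3 of the 6 liver markers were also at 0. Calb1 and Mki67 kept their calls in all 5 fits, and Gad1, Apoe, Aldh1l1 and Ache lost theirs in those with 1 polysome library.

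The difference between the groups followed coding length. Of 443 tested genes with 4800 coding bases or more, 276 (62.3%) were higher and 1 (0.226%) lower, with a median log2 fold change of 0.99. Of 151 tested genes under 300 bases, 14 (9.27%) were higher and 54 (35.8%) lower, with a median of -0.59. The classes between gave medians of -0.34, -0.31, -0.05 and 0.37 for coding regions from 300, 600, 1200 and 2400 bases up to the start of the next class. The longest and shortest classes hold 754 and 785 genes, tested or not. Tested genes include those that passed the filter through 1 group alone, such as Fam179b, the 1 long gene that was lower. How many did so in each class was not counted, so class counts and medians are not evidence beyond the shares of reads. The longest class took 12.1 ± 0.633% of coding reads in the SMN libraries (SD, n = 3), 6.66 ± 0.0521% in polysomes (SD, n = 2), 13.0% in the IgG library, and 6.07% and 6.36% in the RiboLace libraries from SMA brain. Its median ratio to the polysome mean was 1.09, 0.78 and 0.96 in SMN replicates 1, 2 and 3 and 1.09 in the IgG library. Genes called higher had a median coding length of 2976 bases, those called lower 891 and those not called 1455. The 3′ UTRs differed less, with medians of 999, 924 and 1168 bases. The lengths are those of the transcript kept for each gene, which for Syne1 (2850 bases) and Ank2 (3117 bases) is a shorter isoform than the full protein needs.

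**Figure D3:**
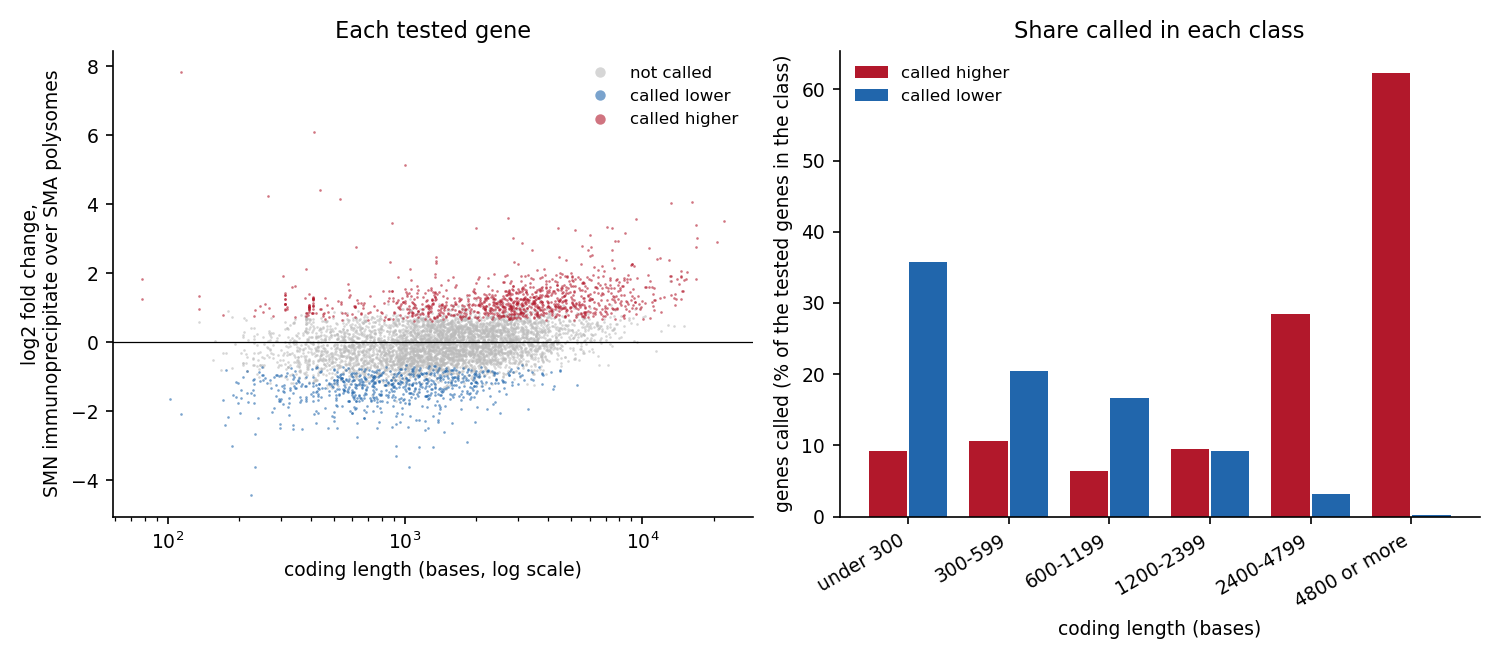
Left, log2 fold change of the SMN immunoprecipitate over SMA polysomes (y axis) against coding length in bases (log x axis), 1 point per tested gene (6484). Right, share of the tested genes in each class of coding length that was called higher or lower: 62.3% were higher at 4800 bases or more, and 35.8% were lower under 300 bases. Tested genes include those that passed the low-count filter through 1 group alone.

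Some genes went against the length trend, and they are named here after their values were seen. The gene of 4800 bases or more that was lower was Fam179b (-1.25 ± 0.38, adjusted p = 0.0255). The 14 genes under 300 bases that were higher included Tmsb10 (543, 481 and 612 CPM against 224 and 208 CPM), the imprinted Nnat (561, 401 and 547 CPM against 264 and 226 CPM) and the ribosomal proteins Rpl41, Rps21 and Rps29 (log2 fold changes 1.26, 0.86 and 0.78). Some lists lay mostly on 1 side of their length class. All 11 tubulins, 57 of 59 core histones, 43 of 46 large-subunit and 30 of 32 small-subunit ribosomal protein genes, 15 of 16 glycolytic enzymes and 11 of 12 linkers and spectrins lay above the median of their own class, against 3240 of all 6484 genes. The chromatin regulators (23 of 40) and the adhesion genes (20 of 41) were spread around it, and 0 of 13 mitochondrial genes lay above it.

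A fit in which the length trend of each library enters as an offset, added after the data were seen, called 835 genes higher and 380 lower, and 638 and 290 of these were also called without the offset. The linkers and spectrins were then higher for 8 of 12 (median 1.57), with Dst at 2.35 (adjusted p = 0.000497) and Macf1 at 1.51 (adjusted p = 0.0133). Tubulins were higher for 11 of 11 (median 1.65), core histones for 51 of 59 (1.43), growth cone regulators for 17 of 26 (1.03) and large-subunit ribosomal proteins for 27 of 46 (0.90). Chromatin regulators were higher for 7 and lower for 3, in place of 29 and 0, adhesion genes higher for 5 and lower for 5, in place of 22 and 0, and matrix glycoproteins higher for 7 in place of 18. Dync1h1 and Map1b were no longer called (log2 fold changes 0.28 and 0.46, adjusted p = 0.488 and 0.26), and neither were Huwe1, Kmt2d, Pclo, Bsn and Mki67. Smn1, with 867 coding bases, gave 2.70 (adjusted p = 5.03e-05), Dbn1 3.36 and Tuba1a 2.5. Of 13 mitochondrial genes, 10 stayed lower.

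**Figure D4:**
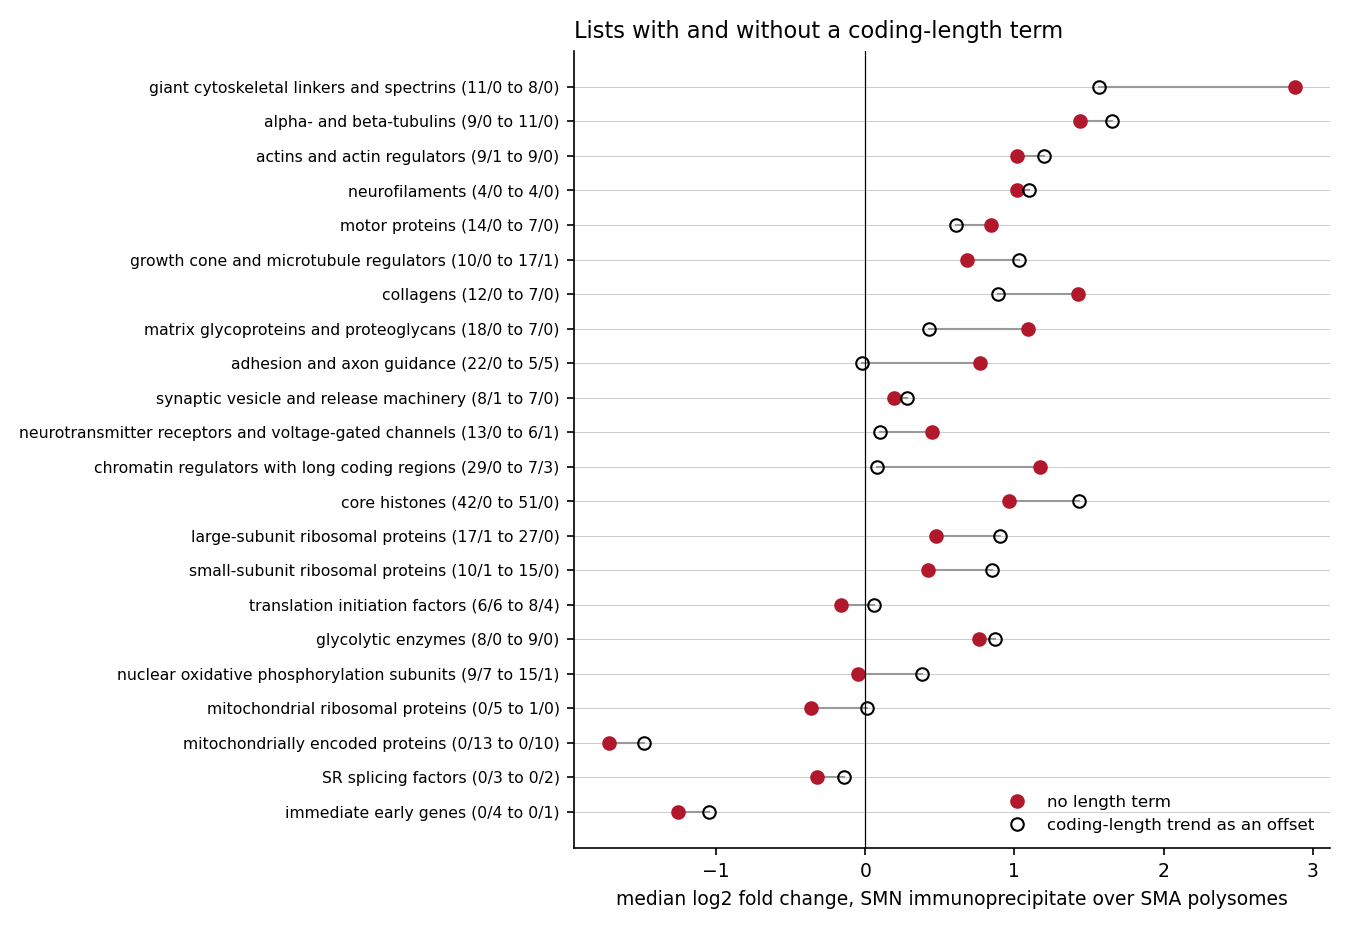
Median log2 fold change of the SMN immunoprecipitate over SMA polysomes for 22 gene lists, without a length term (filled) and with the coding-length trend of each library as an offset (open). Numbers in parentheses are members called higher/lower without and with the offset. Medians of chromatin regulators and adhesion genes move to near 0, while those of tubulins, core histones and ribosomal proteins move up.

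Some genes of the fold ranking carry sequence that resembles repeats or ribosomal RNA, and reads from such RNA were not separated here. Of 6 tested genes listed as such, 5 were higher and 0 lower (median 3.52). Erdr1 had 231, 419 and 261 CPM against 12.7 and 14.4 CPM (log2 fold change 4.42 ± 0.29 (SE), adjusted p = 1.3e-07), Lars2 658, 1069.8 and 542 CPM against 65.3 and 57.6 CPM (log2 fold change 3.60 ± 0.31 (SE), adjusted p = 2.72e-06) and Tmem38b 480.5, 410.1 and 326 CPM against 35.7 and 36.2 CPM (log2 fold change 3.44 ± 0.22 (SE), adjusted p = 1.3e-07). The IgG library had 943, 767 and 351 CPM for them. Snhg11, a small nucleolar RNA host gene with a short annotated coding region, had 400.4, 909 and 437 CPM against 33.9 and 27.0 CPM (log2 fold change 4.23 ± 0.33 (SE), adjusted p = 1.54e-06). The 4 calls held in all 5 fits.

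Set directly against the IgG immunoprecipitate, the SMN immunoprecipitate was higher for 0 genes and lower for 1 of 5517 tested (edgeR quasi-likelihood test, 3 libraries against 1), and 99 were higher and 49 lower at an unadjusted p under 0.05. With 1 IgG library, a p that misses the threshold does not show that the pull-downs are alike. The list medians of the IgG library over polysomes, plotted beside those of the SMN libraries, were 1.64 for tubulins, 1.22 for chromatin regulators, 1.36 for collagens, 0.55 for large-subunit ribosomal proteins and -1.34 for mitochondrial genes. Both sets of ratios share the polysome libraries as their denominator, so their likeness is given as values only.

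**Figure D5:**
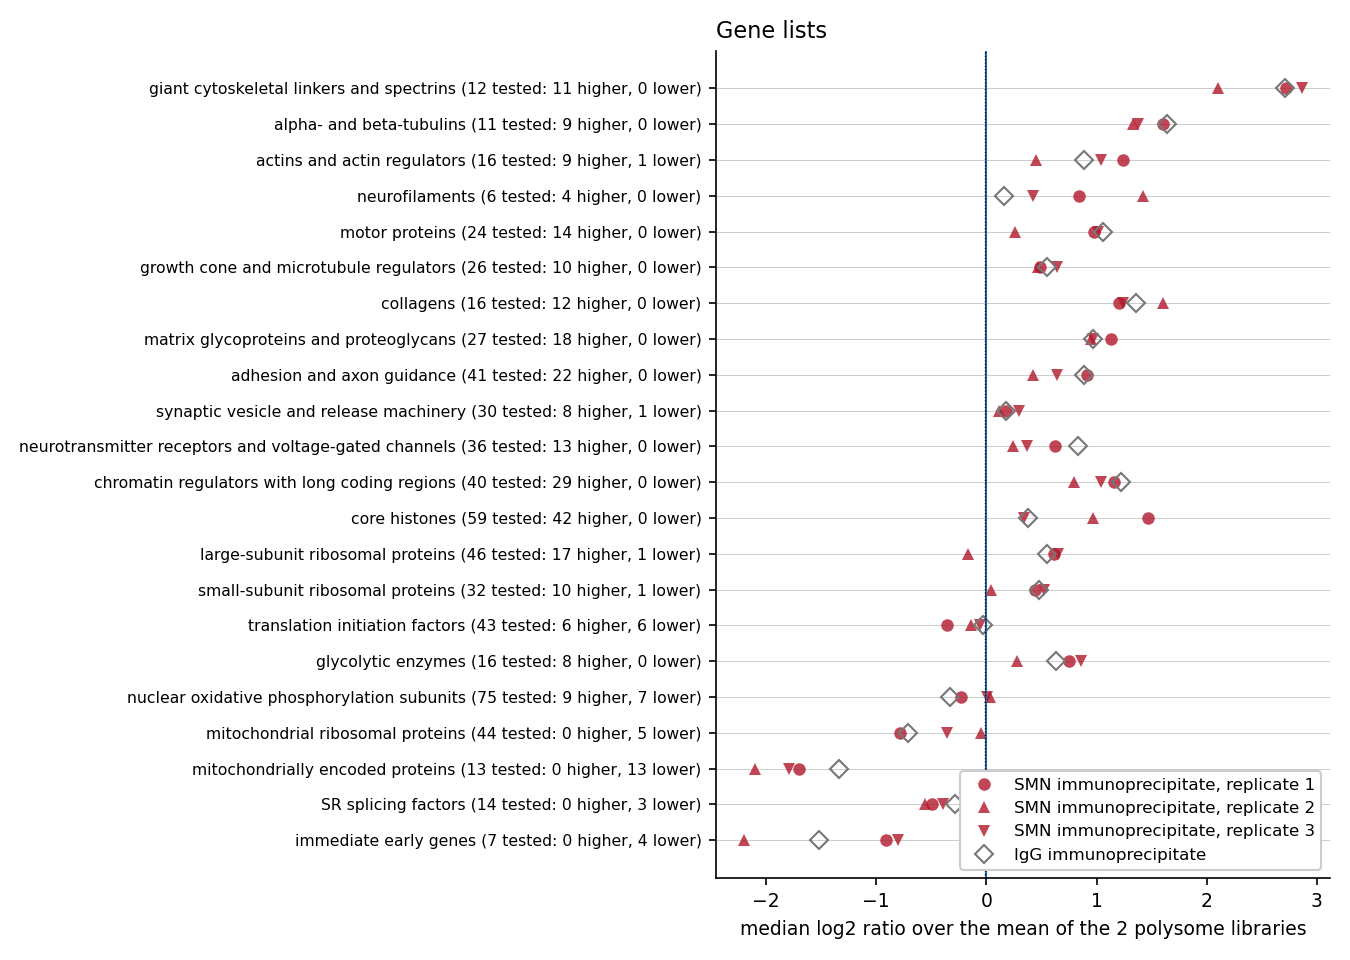
Median log2 ratio to the mean of the 2 polysome libraries (x axis) for 22 gene lists in SMN immunoprecipitate replicates 1 to 3 (filled) and in the IgG immunoprecipitate (open). Labels give the members tested and those called higher and lower in SMN over polysomes. Linkers and spectrins lie at 2.10 to 2.86 in the SMN libraries and mitochondrially encoded genes at -2.10 to -1.70, and the dotted line is the median fold change of all genes.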

How the data were processed

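The deposited table holds ribosome footprint counts per Ensembl transcript, per the file headers, in 8 libraries. The authors' steps named in the submitters' processing notes are Trimmomatic 0.36, Bowtie2 2.2.6, SAMtools and the build GRCm38.p4; their settings, and how reads shared by transcripts were counted, are not given in the sources used here. For each gene, the coding transcript whose counts, scaled by library, summed to the most was used. Tests used edgeR 4.0.16 in R 4.3.3 (TMM, filterByExpr with a minimum count of 10, robust quasi-likelihood fit, Benjamini-Hochberg over all genes tested) on the 3 SMN and 2 polysome libraries, and were tested on simulated data. SE is the log2 fold change over the root of the F statistic. CPM of all libraries use this fit's scale, and per-library ratios a prior count of 2.

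Named genes are Smn1, the 12 largest folds each way (called, without overlap, mean log2 CPM at least 5), the 10 most abundant called genes each way, and up to 4 members with the smallest p of each list; predicted genes are passed over. Other genes named were chosen after their values were seen. Some genes the rule picks are not reported here. The comparison, its members and the 55 gene lists were chosen with earlier results of these data known. No coding or protein sequence was used. Alternatives were DESeq2 1.42.0, limma 3.58.1 voom, other scaling, filters, gene representations, library sets, a replicate block and, added after the data were seen, a coding-length offset. Replicate numbers are shared by the groups, but nothing in the labels pairs them. Intervals and floors cover counting error only.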

Additional observations from a re-analysis of the deposited data

How the results depend on the processing

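No gene was called in opposite directions by the reported fit and any of the 15 alternatives. Genes called higher and lower numbered 850 and 378 with DESeq2, 1023 and 372 with limma-voom, 636 and 1578 on library totals, 908 and 1215 with no filter, 194 and 166 with a minimum count of 50, 1092 and 811 with all 8 libraries in 1 fit, 681 and 434 with counts summed per gene, and 835 and 380 with the coding-length offset. With noncoding genes included in the fit, 785 and 1334 coding genes were called, noncoding genes not counted. Of the reported calls, 811 and 375 were shared with DESeq2, 931 and 345 with limma-voom, and 636 and 719 with library totals. Leaving out 1 library gave 103 to 1755 higher and 38 to 1593 lower. With 1 polysome library left, both polysome replicates included, it is assumed to vary like the SMN libraries. A replicate block left 279 higher and 92 lower; deviations of same-numbered libraries correlated at 0.001 and 0.032, so the numbers were not taken to pair the samples. Some list medians changed sign. On library totals they were -0.065 (aminoacyl-tRNA synthetases), -0.22 (heat shock chaperones), -0.10 (synaptic vesicle genes) and -0.15 (SMA modifiers). With no filter they were -0.14 (SMN complex), -0.10 (heat shock chaperones), -0.018 (FMRP family) and -0.13 (meninges markers). With a minimum count of 50 they were -0.63 (SMN complex), -0.34 (synthetases), -0.044 (synaptic vesicle genes) and 0.071 (coding regions of 300 to under 600 bases). When 1 library was left out, meninges markers ranged from -0.063 (without SMN replicate 1) to 0.78 and heat shock chaperones from -0.028 (without SMN replicate 2) to 0.235. Heat shock chaperones gave -0.024 with summed counts and -0.12 with noncoding genes, where SMA modifiers gave -0.077. With the length offset, the log2 fold change was -0.11 for Bsn and -0.035 for Cspg4, and medians were 0.058 (initiation factors), -0.021 (adhesion genes), -0.063 (SMA modifiers) and 0.089, 0.029 and 0.05 (coding regions from 300, 600 and 1200 bases up to the next class). The offset removes the trend by construction; the cause of the other changes was not tested. Depth limits the SMN libraries, where a gene at 42.1 CPM rests on about 5 to 8 reads.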

Other observations

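Genes without a coding transcript, which the comparison leaves out, differed between the groups too, where genotype and protocol cannot be told apart. In a fit that includes them, all 407 tested snRNA genes and all 335 tested snoRNA genes were higher in the SMN immunoprecipitate than in SMA polysomes, with median log2 fold changes of 5.41 and 4.92. snRNA genes, the RNAs of the spliceosome that the SMN complex assembles into particles, took 9.86%, 10.8% and 10.9% of gene-level reads in SMN replicates 1, 2 and 3 and 0.397% and 0.314% in the polysome libraries. The IgG library had 13.1%, above all 3 SMN libraries, and the RiboLace libraries 6.87% and 8.22%. snoRNA genes, guides of RNA modification, took 3.2%, 3.64% and 4.19% in the SMN libraries, 5.08% in the IgG library, 2.09% and 1.95% in the RiboLace libraries and 0.193% and 0.189% in the polysome libraries. All 54 miRNA and all 23 miscellaneous RNA genes tested were higher as well. Among the 7264 coding genes tested in the same fit, 785 were higher and 1334 lower. A noncoding gene that passed the low-count filter only through the SMN libraries had to be higher. How many did so was not counted, so these counts are not evidence beyond the shares of reads. The 2 mitochondrial ribosomal RNAs took 2.87%, 5.78% and 3.05% in the SMN libraries against 0.128% and 0.122% in polysomes, while all 13 mitochondrial coding genes were lower. Many snRNA and snoRNA genes are near-identical copies that share reads, so these counts of genes are not counts of independent RNAs.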
